A study of Mus musculus with 30 samples.

Results

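The genes described here are the protein-coding neighbours of Timp2 on distal mouse chromosome 11. They were chosen by position alone, as every gene of that biotype in GENCODE release M21 from 10 Mb before the start of Timp2 to the chromosome end of GRCm38, and they number 224 of the 49315 genes in the count table and 224 of its 21811 protein-coding genes. Timp2 itself was left out, as were C1qtnf1, Cant1, Hexdc, Rab40b and Mettl23. The last 5 are neighbours that had passed an adjusted threshold in an earlier analysis of the same mice, so counts of genes past that threshold among the remaining neighbours were trimmed by the same readout. Of the 224 genes, 182 had enough counts to be tested, 113 on the centromeric (proximal) side of Timp2 and 69 on the telomeric (distal) side.

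Hippocampi were taken from 13 TIMP2 KO mice (6 male and 7 female) and 17 WT mice (10 male and 7 female), all labelled C57BL/6J, and poly(A)-selected RNA was sequenced as paired reads. TIMP2 KO is a whole-body loss of Timp2 in a line from the Jackson Laboratory, the WT mice were littermates, heterozygotes were not used, and the labels name no agent. The age of these mice was not stated separately from that of the study's other mice. Each library is 1 mouse, so p-values refer to the spread between mice.

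Timp2 encodes a secreted inhibitor of matrix metalloproteinases. Distal chromosome 11 is a gene-dense stretch in which genes with unrelated roles lie close together, and many start back to back. Genes close to a targeted locus are inherited together with it, so a comparison of littermate genotypes can at the same time compare the chromosome on either side. Sequence differences flanking Timp2 were not measured in these mice, and any part they had in the values below was not tested. The question addressed was how hippocampal expression of these neighbours differed between TIMP2 KO and WT mice, and how that varied with distance from Timp2.

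Counts on genes totalled 18345517 to 41081083 per TIMP2 KO mouse and 19445246 to 32098386 per WT mouse, and 16486 genes in all were tested. In CPM, counts scaled to library size, Timp2 lay between 130 and 170.9 in TIMP2 KO mice with a median of 160.8, and between 256 and 380.4 in WT mice with a median of 333. The 2 groups did not overlap, and reads on Timp2 remained in every TIMP2 KO mouse (log2 fold change -0.999, SE 0.05, adjusted p = 7.62e-16 by edgeR's quasi-likelihood test). The defining markers of hippocampal cells were present, with excitatory neuron markers at 5775 to 7719 CPM in sum and CA1 pyramidal cell markers at 350 to 509 CPM. Striatal markers summed to 3.77 to 6.58 CPM. Thalamus markers were higher, at 47.5 to 59.64 CPM in TIMP2 KO and 42.18 to 64.35 CPM in WT mice. Meningeal fibroblast markers summed to 12.47 to 78.76 CPM in TIMP2 KO and 37.66 to 73.71 CPM in WT mice. Summed choroid plexus markers reached 685 CPM in 1 TIMP2 KO mouse against a TIMP2 KO median of 32.8 and a WT range of 22.8 to 60.0 CPM, and 1 of their 2 tested genes had an unadjusted p under 0.05. Without that mouse, 16 neighbours were lower and 16 higher at that threshold, as with it. Dentate gyrus granule cell markers summed to 244 to 332 CPM in TIMP2 KO and 268 to 425 CPM in WT mice, with 2 of 3 genes at an unadjusted p under 0.05, and their part in the values below was not tested. In bulk tissue, fewer cells of a type and less RNA per cell cannot be told apart.

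Most neighbours differed little between genotypes, but more of them passed the study's threshold for differentially expressed genes (DEGs, an unadjusted p under 0.05) than genes did elsewhere. By edgeR's quasi-likelihood test, 32 of the 182 neighbours (17.6%) were DEGs, against 5.03% of all 16486 genes tested, 4.83% of the 14244 protein-coding genes outside the region and 48 of 994 protein-coding genes (4.83%) on the rest of chromosome 11. These shares are counts, set side by side without a test. In TIMP2 KO, 16 of the 32 were lower, against a background of 2.56%, and 16 were higher, against 2.47%. The DEGs were mostly small: 20 of the 32 differed by under 10%, and 1 differed by 2-fold or more. After Benjamini-Hochberg adjustment over all genes tested, 1 neighbour remained, Gm11733, against 9 of all genes (0.0546%), a number that holds Timp2 and genes left out here. The next smallest adjusted p among the neighbours was 0.627, so each of the other 31 DEGs rests on an unadjusted p. None of the 182 neighbours had TIMP2 KO and WT ranges that did not overlap, whereas 2 of the 16486 genes tested did (0.0121%). Timp2, left out of the neighbours, is among those 2.

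The neighbours had a median absolute log2 fold change of 0.04, against 0.03 over all genes tested. Divided by its standard error, the median size was 0.826 among the neighbours and 0.673 over all genes. The median signed log2 fold change was 0.00 in both. The share of DEGs among the neighbours was 3 of 14 at a mean level under 1 CPM, 8 of 49 from 1 to 10 CPM, 17 of 96 from 10 to 100 CPM and 4 of 23 at 100 CPM and over. Over all genes tested it was between 4.60% and 5.25% in each of those classes, and the share among the neighbours was above it in every class.

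**Figure D1:**
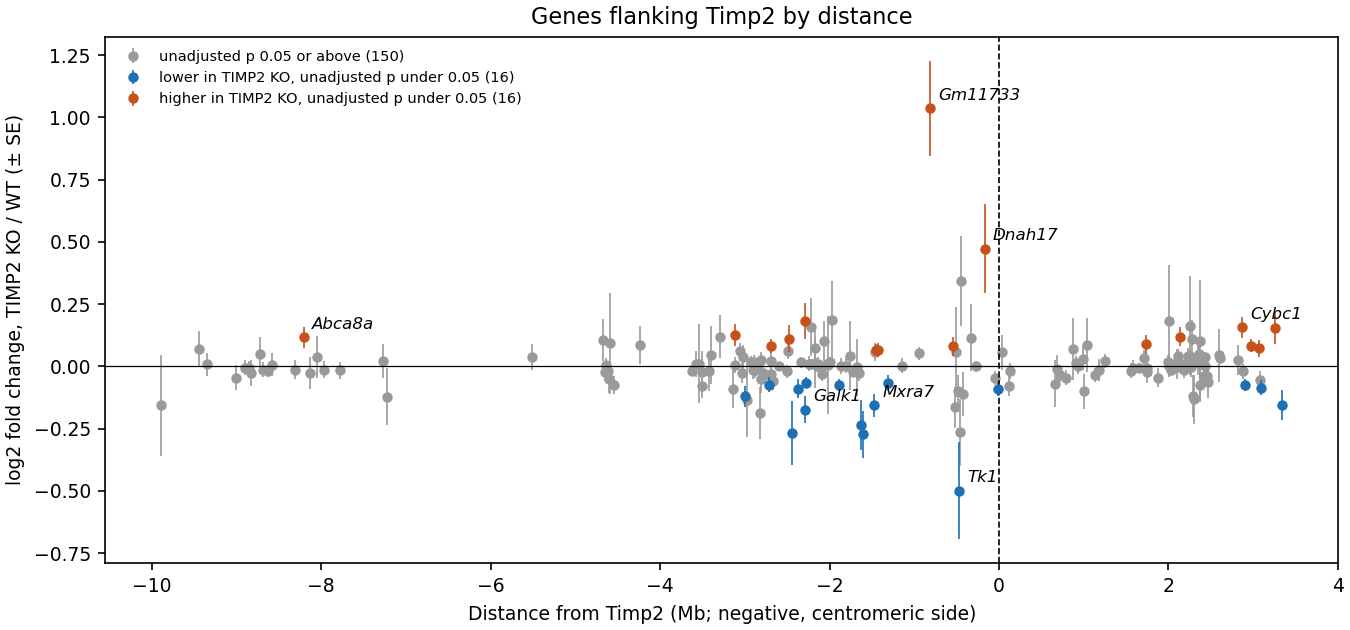
Log2 fold change (TIMP2 KO over WT, points, with 1 standard error either side) of the 182 neighbours tested, against their distance from Timp2 in Mb, with negative distances on the centromeric side and the dashed line at Timp2. The 16 lower DEGs are blue, the 16 higher DEGs orange and the other 150 genes grey, and Gm11733 stands above all others at 1.04.

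DEGs lay on both sides of Timp2. Their share was highest within 2 Mb on the proximal side, but from 3 Mb to the last gene tested on the distal side. Within 1 Mb, 5 of 27 neighbours were DEGs (18.5%), at 1 to 5 Mb 26 of 135 (19.3%), and at 5 to 10 Mb 1 of 20 (5.00%). The order of the first 2 shares depended on the fit, since with sex as a covariate 8 of the 27 and 25 of the 135 were DEGs. On the proximal side, the counts were 5 of 15 in the first Mb, 7 of 17 in the next, 8 of 38 from 2 to 3 Mb, 2 of 15 from 3 to 4 Mb and 0 of 8 from 4 to 5 Mb. On the distal side they were 0 of 12, 1 of 13, 4 of 39 and, from 3 Mb to the last gene tested, 4 of 5. With an edge of 3.5 Mb, drawn after the values were seen, 31 of 149 neighbours inside it were DEGs (20.8%) and 1 of 33 outside it (3.03%), all of the latter on the proximal side because the chromosome ends sooner on the other. The distal 1-Mb bins do not hold C1qtnf1, Cant1, Hexdc and Rab40b, nor the proximal ones Mettl23. All of these had passed an adjusted threshold in the same mice, so the shares by side and by distance were trimmed by that readout.

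**Figure D2:**
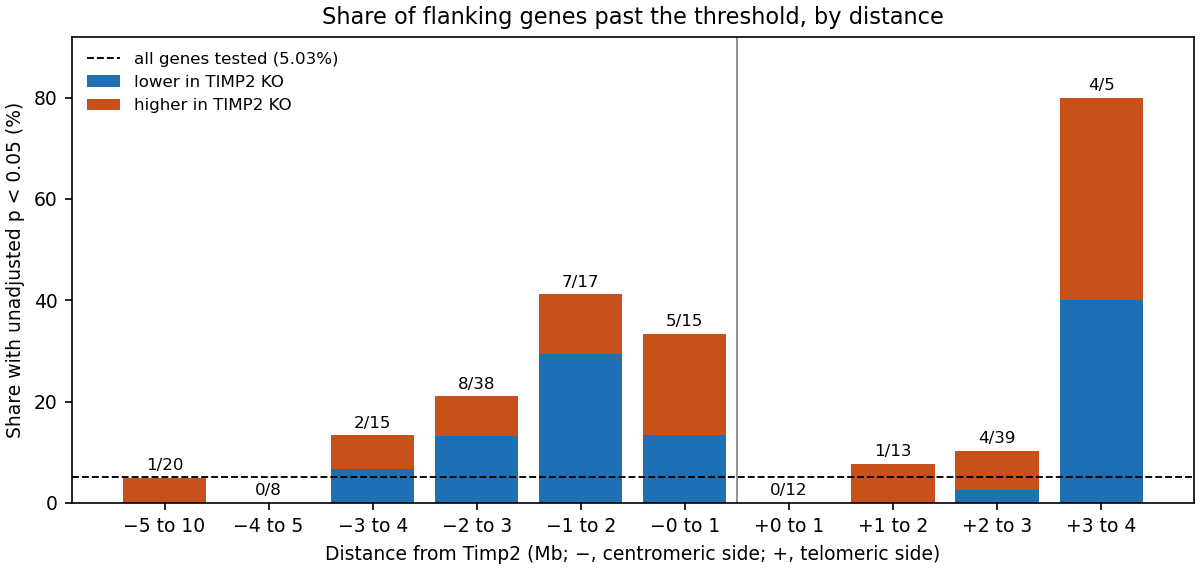
Share of neighbours with an unadjusted p under 0.05 (y axis, percent) in each distance bin in Mb on the centromeric (−) and telomeric (+) side of Timp2, with the number of DEGs over the number tested above each bar and the share over all genes tested (5.03%) dashed. The bars stand highest at +3 to 4 Mb, where 4 of 5 genes were DEGs, and at −1 to 2 Mb, where 7 of 17 were.

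The 5 genes tested nearest to Timp2 on each side hold 2 DEGs, both proximal. The distal neighbours C1qtnf1, Cant1, Hexdc and Rab40b had been left out because they passed an adjusted threshold in the same mice. The sides therefore cannot be compared on this count. Usp36, a nucleolar deubiquitinase, is the closest of all, 10.8 kb away on the same strand, and Dnah17 lies 170 kb away. Usp36 (ENSMUSG00000033909, chromosome 11, 118259651 to 118290244) ran from 23.8 to 27.2 CPM in TIMP2 KO mice, median 25.4, and from 24.5 to 29.2 CPM in WT mice, median 27.2. All 13 TIMP2 KO mice lay below the WT median and 2 lay below the lowest WT mouse, with wide overlap. The log2 fold change was -0.09 (SE 0.03), 6.09% lower, with an unadjusted p of 0.00279 and an adjusted p of 0.754 by edgeR's quasi-likelihood test.

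Dnah17, a heavy chain of axonemal dynein, was a low-level gene: 0.252 to 0.962 CPM in TIMP2 KO mice, median 0.469, against 0.157 to 0.559 CPM in WT mice, median 0.394. The groups overlapped over most of their range, with 4 TIMP2 KO mice above the highest WT mouse and 4 below the WT median (log2 fold change 0.47, SE 0.18). With sex and surrogate variables as covariates it did not pass the threshold (log2 fold change 0.275, unadjusted p = 0.16 by edgeR). The other proximal genes were Cyth1, a guanine exchange factor for ARF GTPases, at -0.05 (SE 0.03), Pgs1, an enzyme of cardiolipin synthesis, at 0.00 (SE 0.02), and Socs3, a suppressor of cytokine signalling, at 0.11 (SE 0.13). On the distal side, Lgals3bp, a secreted glycoprotein, stood at 0.06 (SE 0.07), Engase, a cytosolic glycan hydrolase, at -0.08 (SE 0.04), Rbfox3, the splicing factor known as NeuN, at -0.02 (SE 0.03), and the Polycomb chromobox genes Cbx2 and Cbx8 at -0.07 (SE 0.09) and -0.01 (SE 0.06). None of these 8 passed the threshold in the fit of all mice without covariates. For Rbfox3 the interval of 2 standard errors ran from -0.08 to 0.04. Cyth1 passed the threshold with sex and surrogate variables (log2 fold change -0.06, unadjusted p = 0.0197 by edgeR). It also did so with limma voom, in females alone, and without TIMP2 KO replicate 9 or WT replicate 3, whereas in males alone it stood at -0.01. Engase passed it with limma voom alone (unadjusted p = 0.0419).

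Gm11733, a predicted gene of no role known here, was the one neighbour that rose in TIMP2 KO after adjustment. It lies 812 kb proximal to Timp2 (ENSMUSG00000069588, chromosome 11, 117484368 to 117489014, plus strand) and shares no exon with another annotated gene. Its level was 0.332 to 1.05 CPM in TIMP2 KO mice, median 0.682, and 0.103 to 0.605 CPM in WT mice, median 0.264. All 13 TIMP2 KO mice lay above the WT median and 9 above the highest WT mouse. This rests on few reads, 8 to 24 per TIMP2 KO mouse and 2 to 18 per WT mouse. The mean was 0.652 ± 0.184 CPM (SD, n = 13) in TIMP2 KO and 0.307 ± 0.147 CPM (SD, n = 17) in WT, a 2.05-fold difference (log2 fold change 1.04, SE 0.19, adjusted p = 0.0134 by edgeR's quasi-likelihood test). In females alone the log2 fold change was 1.08 (SE 0.31) and in males alone 1.00 (SE 0.24).

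After Gm11733, the smallest p-values fell on genes of moderate level whose groups overlapped. To show the sequence from which some of them and the nearest neighbour start, the 150 bases upstream of 4 genes, from RefSeq on GRCm38.p6, are given 5′ to 3′ on the strand of the gene. Capitals mark a GC box (GGGCGG or CCGCCC) or a CCAAT box (CCAAT or ATTGG), searched on both strands, while TATAAA and TTTATA were not in these windows. A RefSeq promoter was matched by symbol for 141 of the 182 genes, and the neighbours were not compared with other genes. Of 27025 promoters, 1 per gene, 29.1% hold a GC box in 150 bases, 25.2% a CCAAT box and 8.01% TATAAA on either strand.
Cybc1, chr11:121229310-121229459, minus strand: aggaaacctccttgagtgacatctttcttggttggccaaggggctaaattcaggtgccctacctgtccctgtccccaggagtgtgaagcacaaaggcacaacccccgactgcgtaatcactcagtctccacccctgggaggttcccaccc
Mxra7, chr11:116828047-116828196, minus strand: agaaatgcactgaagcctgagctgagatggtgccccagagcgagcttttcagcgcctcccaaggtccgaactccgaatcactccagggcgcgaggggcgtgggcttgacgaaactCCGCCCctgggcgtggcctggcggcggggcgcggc
Foxk2, chr11:121259837-121259986, plus strand: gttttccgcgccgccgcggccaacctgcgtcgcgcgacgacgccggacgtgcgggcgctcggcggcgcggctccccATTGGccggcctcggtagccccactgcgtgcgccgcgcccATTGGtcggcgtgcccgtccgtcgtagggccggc
Usp36, chr11:118290245-118290394, minus strand: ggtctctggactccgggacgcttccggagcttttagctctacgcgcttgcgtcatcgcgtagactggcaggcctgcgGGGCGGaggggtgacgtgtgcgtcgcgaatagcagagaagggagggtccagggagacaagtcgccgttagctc

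The windows of Foxk2, Usp36 and Mxra7 held more CpG dinucleotides than the median of 4 over all 27025 promoters, and that of Cybc1 fewer. Foxk2 holds 31 CpG dinucleotides and 2 CCAAT boxes, Usp36 16 CpG and 1 GC box, Mxra7 14 CpG and 1 GC box, and Cybc1 2 CpG and no motif searched. Cybc1 was higher in TIMP2 KO and the other 3 were lower. Whether sequence and direction go together was not tested.

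Cybc1 encodes a chaperone that phagocytes need for the NADPH oxidase. It ran from 15.9 to 21.3 CPM in TIMP2 KO mice, median 18.0, and from 15.0 to 19.6 CPM in WT mice, median 16.2. In 12 of 13 TIMP2 KO mice the level was above the WT median, and in 4 it was above the highest WT mouse (11.5% higher, log2 fold change 0.16, SE 0.04, adjusted p = 0.627 by edgeR). Its exons overlap by 1.61% with those of Hexdc on the other strand, one of the genes left out.

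Mxra7, named for its association with matrix remodelling, showed the opposite direction. TIMP2 KO mice lay between 9.89 and 14.4 CPM, median 11.8, and WT mice between 12.0 and 14.8 CPM, median 13.1. Of the 13 TIMP2 KO mice, 8 were below the lowest WT mouse and 2 above the WT median (10.3% lower, log2 fold change -0.16, SE 0.05).

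Foxk2, a forkhead transcription factor, ran from 99.6 to 112 CPM in TIMP2 KO, median 107, and from 104 to 121 CPM in WT, median 113. No TIMP2 KO mouse exceeded the WT median and 5 lay below the lowest WT mouse, although the mean difference was 4.99% (log2 fold change -0.07, SE 0.02). Wdr45b, which binds phosphoinositides in autophagy and is the next tested gene beyond Foxk2, went the other way: 59.0 to 69.6 CPM in TIMP2 KO, median 64.7, against 52.7 to 64.4 CPM in WT, median 61.5. In 8 TIMP2 KO mice its level was above the highest WT mouse (5.97% higher, log2 fold change 0.08, SE 0.03).

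**Figure D3:**
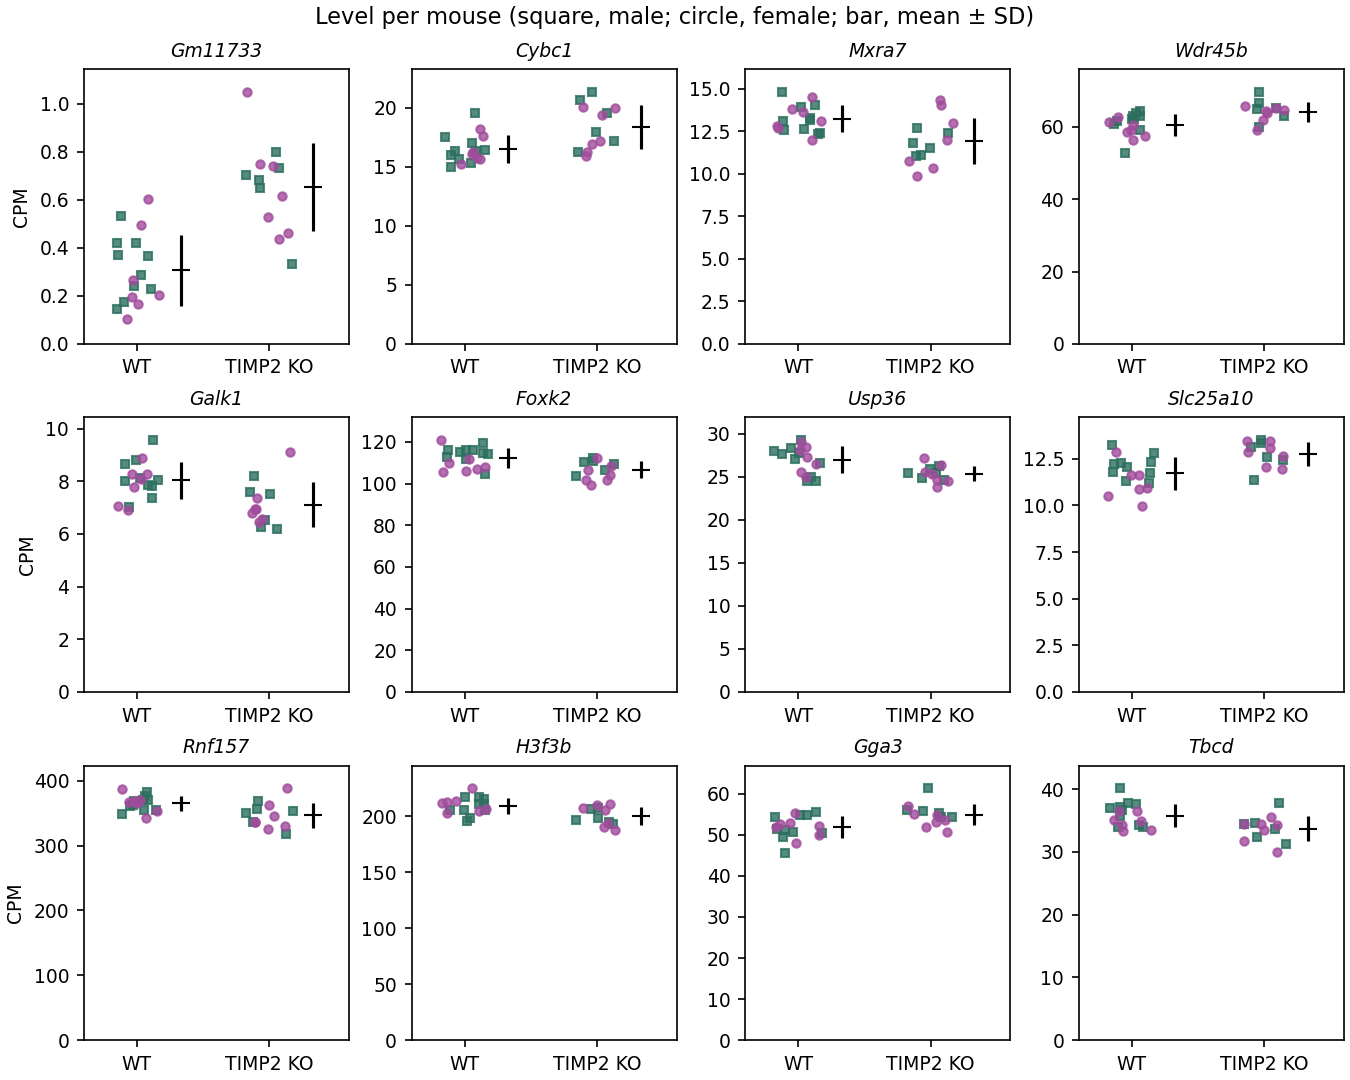
Level in CPM (y axis, from 0) in each of the 17 WT and 13 TIMP2 KO mice for the 12 neighbours with the smallest p, with males as squares, females as circles and the mean ± SD as a black bar. The groups overlap in every panel, and the difference is widest in Gm11733, with means of 0.652 and 0.307 CPM.

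The other lower DEGs with the smallest p-values had metabolic, chromatin and ubiquitin roles. Galk1, the kinase of galactose breakdown, lay between 6.19 and 9.12 CPM in TIMP2 KO mice, median 6.94, and between 6.93 and 9.56 CPM in WT mice, median 8.06. That placed 6 TIMP2 KO mice below every WT mouse and 2 above the WT median (11.4% lower, log2 fold change -0.17, SE 0.05). Rnf157, a ubiquitin ligase abundant in brain, ran from 318 to 388 CPM in TIMP2 KO, median 346, and from 343 to 387 CPM in WT, median 367. Here the highest mouse of all was a TIMP2 KO mouse, yet 6 others lay below the WT range (4.95% lower, log2 fold change -0.07, SE 0.02).

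H3f3b encodes the replacement histone H3.3. Its level was 187 to 210.4 CPM in TIMP2 KO mice, median 198, and 196 to 225 CPM in WT mice, median 210.4. All 13 TIMP2 KO mice lay below the WT median (4.38% lower, log2 fold change -0.06, SE 0.02). Tbcd, a cofactor of tubulin folding, ran from 29.9 to 37.9 CPM in TIMP2 KO, median 34.3, and from 33.4 to 40.1 CPM in WT, median 35.8. The groups overlapped, with 4 TIMP2 KO mice below the lowest WT mouse (5.80% lower, log2 fold change -0.09, SE 0.03).

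Among higher DEGs, Slc25a10, the dicarboxylate carrier of the mitochondrial inner membrane, ran from 11.4 to 13.5 CPM in TIMP2 KO, median 12.9, and from 9.94 to 13.3 CPM in WT, median 11.7. All but 1 TIMP2 KO mouse were above the WT median (8.66% higher, log2 fold change 0.12, SE 0.04). Gga3, an adaptor that sorts cargo between the Golgi and endosomes, ran from 50.7 to 61.3 CPM in TIMP2 KO, median 54.7, and from 45.6 to 55.5 CPM in WT, median 51.8. In both genes 4 TIMP2 KO mice exceeded every WT mouse (Gga3 5.87% higher, log2 fold change 0.08, SE 0.03).

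Of the remaining genes named by rank, St6galnac2, a sialyltransferase (ENSMUSG00000057286), was 17.2% lower (log2 fold change -0.27, SE 0.10). Its log2 fold change was -0.12 (SE 0.11) in females and -0.46 (SE 0.15) in males (interaction unadjusted p = 0.0713 by edgeR). Fads6, of the fatty acid desaturase family, was 7.98% lower, Metrnl, a secreted meteorin-like protein, 10.1% lower, and Nat9, an N-acetyltransferase, 9.12% higher. Abca8a, a lipid transporter of the ABC family, was the only DEG beyond 3.5 Mb, at 8.21 Mb on the proximal side. It ran from 12.8 to 18.1 CPM in TIMP2 KO, median 14.8, and from 12.1 to 15.5 CPM in WT, median 13.6. The groups overlapped, with 4 TIMP2 KO mice above the WT range (8.44% higher, log2 fold change 0.12, SE 0.04). With sex and surrogate variables as covariates the log2 fold change was 0.07 and the threshold was not passed (unadjusted p = 0.0634 by edgeR).

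Tk1, the thymidine kinase of dividing cells, had the lowest ratio to WT of the DEGs, 70.8%, at a very low level. It lay between 0.121 and 0.641 CPM in TIMP2 KO mice, median 0.349, and between 0.219 and 0.733 CPM in WT mice, median 0.512. In 3 TIMP2 KO mice it was below every WT mouse, and in 2 above the WT median (29.2% lower, log2 fold change -0.50, SE 0.19). With sex and surrogate variables, Tk1 stood at -0.34 (unadjusted p = 0.118 by edgeR) and Metrnl at -0.11 (unadjusted p = 0.132), neither past the threshold. The adjusted p-values of the 31 DEGs other than Gm11733 ran from 0.627 to 0.980 by edgeR's quasi-likelihood test.

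The last 11 DEGs fall outside the rule for named genes and are listed because the set is then complete. Higher in TIMP2 KO were Itgb4, a laminin-binding integrin subunit, at 0.18, B3gntl1 at 0.15, Tsen54, of the tRNA splicing endonuclease, at 0.11, Tepsin, an accessory protein of the AP-4 coat, at 0.09, Fn3krp, of the enzymes that remove sugars from proteins, at 0.07, and Mfsd11 at 0.07 on the log2 scale. Lower were Llgl2, a cell polarity protein, at -0.27, Prcd, a photoreceptor disc protein, at -0.23, Recql5, a DNA helicase, at -0.09, Nup85, of the nuclear pore, at -0.07, and Mgat5b, a glycosyltransferase of brain, at -0.07. The DEG with the largest p was Llgl2 (unadjusted p = 0.0464), and the first gene outside the threshold was Tmc6, with a log2 fold change of -0.16 and an unadjusted p of 0.0558.

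Grouped by known role, no group of neighbours had most of its genes past the threshold. The counts below stand beside a share of 17.6% over all neighbours tested and 5.03% over all genes tested. The groups are small and were not tested as sets. Of 17 genes of neuronal signalling and the synapse, 0 passed the threshold, with a median log2 fold change of -0.01 and a range from -0.12 to 0.11. The most abundant of them was Nptx1, a neuronal pentraxin that clusters glutamate receptors, at 709 to 968 CPM in TIMP2 KO and 685 to 968 CPM in WT mice (log2 fold change -0.02, SE 0.04). The smallest p of the group was that of Cdc42ep4, an effector of the GTPase CDC42 (34.4 to 46.1 CPM in TIMP2 KO, 35.9 to 47.4 CPM in WT, log2 fold change -0.07, unadjusted p = 0.0573). Cdc42ep4 and Cyth1, also of this group, passed the threshold under some of the alternatives.

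Of 10 genes of RNA processing and translation, 1 was lower (Nup85) and 3 were higher, with a median of 0.03. The higher ones were Srsf2, a splicing factor, Tnrc6c, of the microRNA silencing complex, and Tsen54. Srsf2 ran from 92.1 to 101 CPM in TIMP2 KO, median 94.3, and from 81.8 to 102 CPM in WT, median 90.3. All 13 TIMP2 KO mice were above the WT median and all were inside the WT range (4.71% higher, log2 fold change 0.07, SE 0.03), and with sex and surrogate variables it did not pass the threshold (log2 fold change 0.05, unadjusted p = 0.0564 by edgeR). Tnrc6c ran from 98.4 to 130 CPM in TIMP2 KO and from 87.2 to 118 CPM in WT mice (5.72% higher, log2 fold change 0.08, SE 0.04), and without WT replicate 3 it did not pass the threshold (log2 fold change 0.07, unadjusted p = 0.0609 by edgeR). Rpl38, a ribosomal protein, was at 81.9 to 95.2 CPM in TIMP2 KO and 84.5 to 96.5 CPM in WT (log2 fold change -0.02, SE 0.02).

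In protein folding, sorting and turnover, 1 of 12 genes was lower (Usp36) and 2 were higher (Gga3 and Tepsin), with a median of 0.01. Its most abundant members were Csnk1d, a casein kinase, at 0.03 (SE 0.02), and Ube2o, a ubiquitin-conjugating enzyme, at -0.02 (SE 0.02). Of 11 genes of mitochondrial proteins, 1 was higher (Slc25a10) and none lower, with a median of 0.01, and Atp5h, a subunit of ATP synthase, stood at -0.02 (SE 0.03) and Mrpl12, of the mitochondrial ribosome, at 0.01 (SE 0.03). Among 10 genes listed under lipid and energy metabolism, 2 were lower (Galk1 and Tk1) and none higher, with a median of -0.01. Tk1, a thymidine kinase, fits that heading poorly. There Fasn, the fatty acid synthase, was at 213 to 278 CPM in TIMP2 KO and 211 to 281 CPM in WT (log2 fold change -0.04, SE 0.05).

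Of 9 genes of the cytoskeleton and its regulators, 2 were lower (Tbcd and Llgl2) and 1 higher (Itgb4), with a median of 0.02. Actg1, cytoplasmic actin, had the highest level per kb of exon of all neighbours tested (221 CPM per kb) and a log2 fold change of 0.02 (SE 0.03), and Arhgdia, an inhibitor of small GTPases, stood at 0.01 (SE 0.02). Prkar1a, a regulatory subunit of protein kinase A, came next at 197 CPM per kb, with a log2 fold change of -0.02 (SE 0.02), and Rpl38 followed at 166 CPM per kb.

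In the ABCA transporter cluster, 1 of 5 genes was higher (Abca8a), while its neighbours Abca8b and Abca5 were both at -0.01 (SE 0.04 and 0.03). Of 4 genes of the motile cilium, 1 was higher (Dnah17). Foxj1, the transcription factor of motile cilia, ran from 1.81 to 9.08 CPM in TIMP2 KO and from 2.76 to 7.60 CPM in WT, a spread that left its log2 fold change of 0.19 within an interval from -0.12 to 0.50 (-0.10 with sex and surrogate variables), and Kif19a, a kinesin of cilia, stood at -0.02 (SE 0.08). No gene passed the threshold among 3 lysosomal enzymes, where Gaa, acid alpha-glucosidase, stood at 0.01 (SE 0.03) and Arsg, a sulfatase, at 0.05 (SE 0.07). Of 11 genes for CD300 immunoglobulin-like receptors of myeloid cells, 2 could be tested, Cd300c2 at 0.12 (SE 0.09) and Cd300a at 0.05 (SE 0.12).

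Pairs of neighbours whose start sites lie back to back within 1 kb were set side by side. There were 20 such pairs among the genes tested, and in 11 both genes had the same sign. In 10 pairs the genes overlap at their starts, and reads there may not have been told apart, since the strand setting of the counting is not given in the sources used here. In 1 pair both were DEGs, Srsf2 and Mfsd11, both higher at 0.07 (SE 0.03 each). This pair is one of those that overlap, with 25.3% of the Srsf2 exons shared with Mettl23 or Mfsd11. In 6 pairs 1 gene was a DEG, 5 of them pairs that overlap, and in 13 neither was.

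Tepsin and Ndufaf8 are the one pair with 1 DEG whose genes do not overlap. Tepsin ran from 11.1 to 13.3 CPM in TIMP2 KO and from 9.71 to 12.8 CPM in WT (log2 fold change 0.09, SE 0.04), whereas Ndufaf8, an assembly factor of respiratory complex I, stood at -0.02 (SE 0.05). The 196 bases between their start sites are printed on the strand of Tepsin, with 1 GC box and 3 CCAAT boxes in capitals. Of all promoters cut to 196 bases, 31.3% hold a GC box and 29.6% a CCAAT box on either strand.
Tepsin to Ndufaf8, chr11:120098732-120098927, minus strand: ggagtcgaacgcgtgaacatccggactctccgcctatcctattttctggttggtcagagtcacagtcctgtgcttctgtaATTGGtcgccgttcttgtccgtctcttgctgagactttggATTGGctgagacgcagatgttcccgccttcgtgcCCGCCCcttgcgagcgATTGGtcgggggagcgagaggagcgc

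The other pairs with 1 DEG were Nat9 (0.13) with Tmem104 (0.06), Gga3 (0.08) with Mrps7 (-0.03), Recql5 (-0.09) with Sap30bp (0.02), Prcd (-0.23) with Cygb (-0.03) and Tk1 (-0.50) with Afmid (-0.26). In Nat9, Prcd and Tk1 the partner had the same sign, and Afmid, a hydrolase of tryptophan breakdown, was just outside the threshold (unadjusted p = 0.0564).

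**Figure D4:**
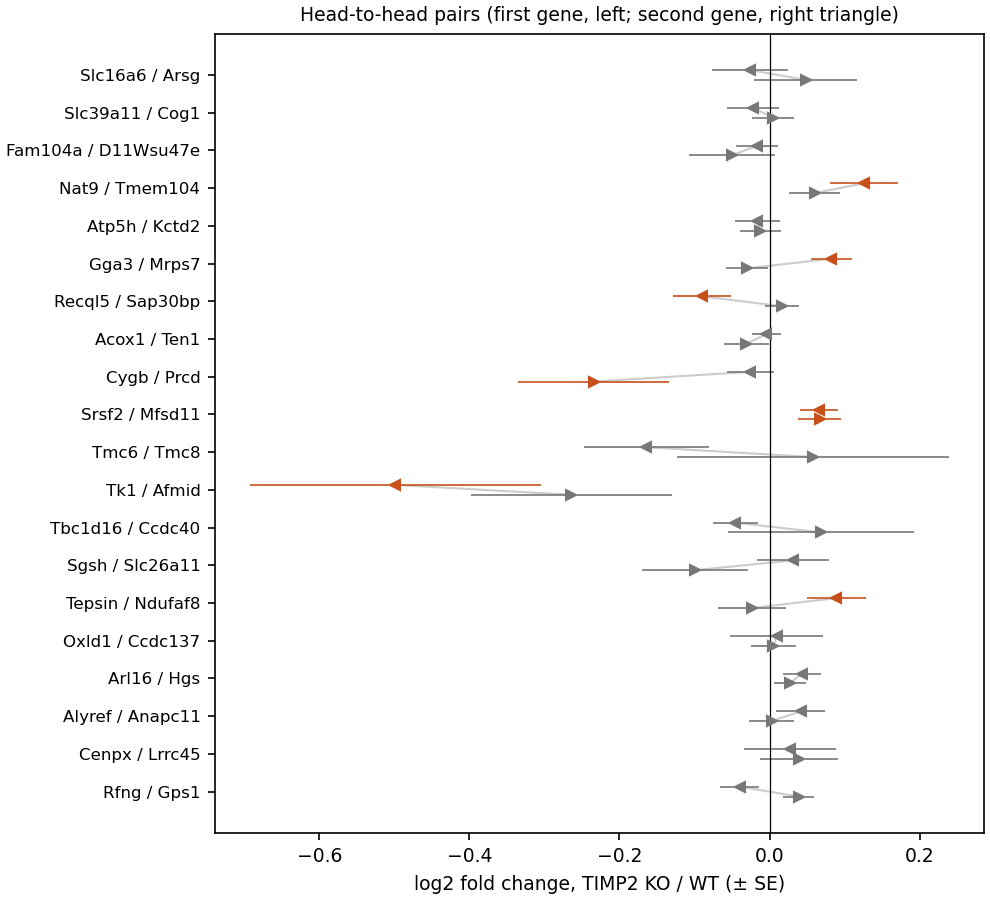
Log2 fold change (TIMP2 KO over WT, x axis, with 1 standard error either side) of both genes of the 20 head-to-head pairs, the first gene of each label as a left-pointing and the second as a right-pointing triangle, with DEGs orange. Srsf2 and Mfsd11, both at 0.07, are the one pair with 2 DEGs.

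Overlap with other genes was common. Exons of 13 of the 32 DEGs and of 55 of the other 150 genes overlapped an exon of another annotated gene, by over 10% of the exon length in 3 and 15 genes. Those 3 DEGs were Srsf2, St6galnac2 (15.2%) and Prcd (13.1%), and the reads on them are the least certain. Among the 114 neighbours without any overlap, 19 were DEGs (16.7%), 11 lower and 8 higher.

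Females and males are separate mice, so each sex gives a reading of the genotype difference that the other did not enter. In females alone, 14 of the 182 neighbours were at an unadjusted p under 0.05 (7.69%), against 5.00% of all genes tested. In males alone, 22 were (12.1%), against 3.24%. Of the 14 in females, 13 had the same sign in males, and of the 22 in males, 19 had the same sign in females. The same shares over all genes were 508 of 824 (61.7%) and 364 of 534 (68.2%). Both sexes called 2 genes, Gm11733 and Cybc1, the latter at 0.13 (SE 0.06) in females and 0.19 (SE 0.06) in males. Over all 182 neighbours, 110 (60.4%) had the same sign in both sexes, against 54.2% of all genes. All 32 DEGs had the same sign in both, which a test on the pooled mice favours.

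**Figure D5:**
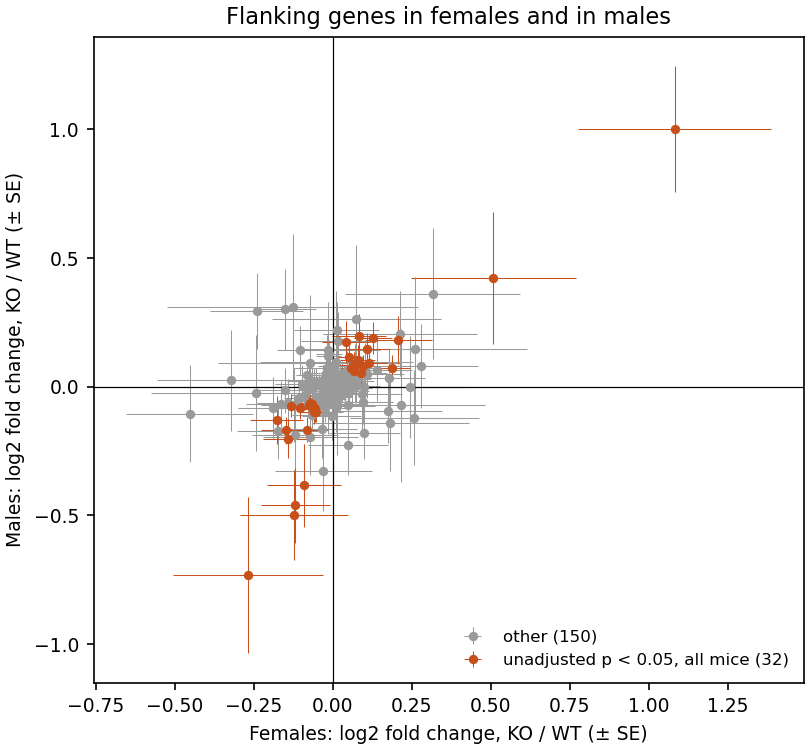
Log2 fold change (TIMP2 KO over WT) in females (x axis) and in males (y axis) of the 182 neighbours tested, with 1 standard error either way, and the 32 DEGs of the pooled mice in orange. Gm11733 lies at 1.08 and 1.00, far from the rest, and the DEGs fall in the quadrants of equal sign.

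No difference between the sexes in the genotype effect was detected. The interaction of sex and genotype had an adjusted p under 0.05 in 0 neighbours by edgeR and in 0 by DESeq2, and an unadjusted p under 0.05 in 5 of 182, against 2.57% of all genes. The smallest interaction p was that of Cd300a, an inhibitory receptor of myeloid cells, with log2 fold changes of -0.24 in females and 0.29 in males (adjusted p = 0.9995 by edgeR's quasi-likelihood test). Between females and males with genotype as a covariate, 0 neighbours had an adjusted p under 0.05, against 0.218% of all genes, and 20 of 182 an unadjusted p under 0.05, against 9.77%. Pgs1 had the smallest of these p-values and was lower in females (log2 difference -0.06, SE 0.02, adjusted p = 0.225 by edgeR's quasi-likelihood test).

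The 42 neighbours that were not tested were near silent in hippocampus. Of these, 3 had 0 counts in every mouse, no mouse had over 20 counts on any of them, and the median of their highest counts was 5. They include 9 of the 11 CD300 genes. One of those, Cd300ld4, picked after its values were seen, lay below the WT median in all 13 TIMP2 KO mice, on at most 3 counts per TIMP2 KO mouse and 9 per WT mouse. Cd300ld4 was picked from 42 genes and not tested, so its values give no result about genotype. The share of other low-count genes with the same pattern is not given here. Without the filter on low counts, 18 neighbours were lower and 19 higher at an unadjusted p under 0.05, and 31 of them lay at 1 to 5 Mb.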

How the data were processed

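Hippocampal RNA of 30 mice was measured as raw counts per gene. The authors deposited these counts without normalization. The submitters' processing notes name Trimmomatic 0.36, STAR 2.5.2b and featureCounts of Subread 1.5.2 with GRCm38, and the methods name DESeq2 for the authors' comparison. The strand setting and the annotation release are not given in the sources used here. All columns were matched to a mouse by its label. The mice have no paired replicate numbers.

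TMM factors, edgeR's filter on low counts by genotype and its quasi-likelihood test were computed on the whole table with edgeR 4.0.16 in R 4.3.3, with both sexes pooled and no covariate, and Benjamini-Hochberg adjustment over all 16486 genes tested. Log2 CPM used a prior count of 2. Well-covered genes were limited by the spread between mice, a common coefficient of variation of 7.52%. Intervals are 2 standard errors either side. The test was tried on simulated data. Positions, biotypes and exon overlaps came from GENCODE release M21.

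The result of 1 gene list is not reported here. The neighbours, the gene lists and the rule for named genes were chosen with earlier results of these data known. Named were up to 20 DEGs with the smallest p and the same sign in both sexes, the 5 tested genes nearest to Timp2 on each side, the gene with the smallest p and the 2 most abundant of each list, the 3 with the highest level per kb of exon, and those with the smallest p for the interaction and for sex.

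Alternatives were RLE size factors, DESeq2 1.42.0, TMM factors without chromosome 11, no filter, a minimum of 10 counts in each mouse, a covariate for sex, 8 surrogate variables of sva 3.50.0 beside sex, each sex alone, limma 3.58.1 voom with sample weights, genes without exon overlap, and leaving out each of 3 mice. The 1-Mb bins, the edge at 3.5 Mb, the level classes, the sign in the other sex and the head-to-head pairs were added after the data were seen. Harvest dates are not in the labels and could not be fitted.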

Additional observations from a re-analysis of the deposited data

Results flagged for a closer look

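Within each genotype and sex, 196 groups of the genes named by rule were examined for a mouse far from the others, and 19 had one, where chance alone gives about 1 in 20 groups, or 9.8. Mice are numbered as in their labels and values are log2 CPM. WT male mouse 6 accounted for 7 of the 19. It was the highest of its group in Prkar1a (9.97, nearest mouse 9.79) and Atp5h (7.72, nearest 7.45), and the lowest in Kif19a (0.94, nearest 1.42), Rbfox3 (8.1, nearest 8.26), Actg1 (9.05, nearest 9.13), Foxk2 (6.71, nearest 6.81) and Wdr45b (5.72, nearest 5.89). Without this mouse, 17 neighbours were lower and 17 higher at an unadjusted p under 0.05.

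Among TIMP2 KO females, mouse 27 was lowest in Prkar1a (9.67) and Cdc42ep4 (5.11), mouse 5 highest in Abca8a (4.18) and Galk1 (3.2), and mouse 30 lowest in St6galnac2 (ENSMUSG00000057286, 0.68) and highest in Fasn (8.12). Among TIMP2 KO males, mouse 18 was highest in Gga3 (5.94) and lowest in Gm11733 (-1.3, nearest -0.47), and mouse 10 lowest in Ube2o (6.92). Among WT females, mouse 21 was lowest in Srsf2 (6.36), mouse 4 highest in Arhgdia (8.0) and mouse 28 highest in Foxk2 (6.92). The low value of Gm11733 in mouse 18 lies toward the WT mice, and without that mouse its log2 fold change was 1.10 against 1.04 with it.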

How the results depend on the processing

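None of the 21 DEGs named by rule changed sign under an alternative. Most of them were named for a small p and the same sign in females and in males. For those, the fits of each sex alone could not show a change of sign. DEGs not named by rule were not followed gene by gene. Of genes that were not DEGs, Foxj1 turned from 0.19 to -0.10, Prkar1a from -0.02 to 0.01 and Abca8b from -0.01 to 0.03 with sex and surrogate variables, and Cd300a from 0.05 to -0.24 in females alone. Other named genes near 0 that changed sign did so by less than the standard error of their log2 fold change over all mice. The count of neighbours with an adjusted p under 0.05 went from 1 to 0 with at least 10 counts in every mouse, which removes Gm11733 from the test, and to 0 in females alone and 0 in males alone, where fewer mice were compared. Of lower DEGs, 16 in all mice, there were 8 in females alone. Of higher DEGs, also 16, there were 9 with sex and surrogate variables, 6 in females alone, 8 in males alone and 8 among genes without exon overlap. Within 1 Mb, the 5 DEGs became 2 with at least 10 counts in every mouse, 8 with sex as a covariate and 2 in males alone. At 1 to 5 Mb, the 26 became 10 in females alone. At 5 to 10 Mb, the 1 became 0 with surrogate variables, 0 in females alone and 0 in males alone. For the surrogate variables and the covariate the cause was not tested.

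The other counts stayed within 1.5 times of those reported. DESeq2 gave 19 lower and 18 higher DEGs, and no filter 18 and 19. Over the 3 mice left out in turn, TIMP2 KO replicates 6 and 9 and WT replicate 3, lower DEGs ran from 15 to 17 and higher DEGs from 16 to 17. Median absolute log2 fold changes ran from 0.04 to 0.06. Of the 21 DEGs named by rule, 15 kept an unadjusted p under 0.05 in each of the 11 alternatives with both sexes that tested them. Abca8a, Dnah17, Metrnl, Srsf2 and Tk1 lost it with sex and surrogate variables, and Tnrc6c with limma voom and without WT replicate 3. Most of the 21 were chosen for their small p, which favours the number that kept it. Of named genes that were not DEGs, Cyth1 and Cdc42ep4 passed the threshold with limma voom, in females alone and without TIMP2 KO replicate 9. Cyth1 also passed it with sex and surrogate variables and without WT replicate 3, and Engase with limma voom. With at least 10 counts in every mouse, Gm11733, Dnah17 and Tk1 were not tested. Whether groups overlap does not depend on the test, so DESeq2, the covariates and voom gave no value for it. No paired analysis was possible because the replicate numbers follow the order of the mice and pair none of them.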
